A study of Mus musculus with 12 samples.

Results

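Polycomb repressive complex 2 (PRC2) is represented here by 10 genes of the 46603 in the count tables: the catalytic subunits Ezh1 and Ezh2, the core subunits Eed, Suz12, Rbbp4 and Rbbp7, the PRC2.2 accessory subunits Jarid2 and Aebp2, and the PRC2.1 accessory subunits Mtf2 and Phf19. They were chosen by symbol, all 10 were found, and all 10 had enough counts to be tested in every comparison. Messenger RNA was sequenced from microdissected mouse cortex on a C57Bl/6J background in 4 groups of 3 libraries: Chd8+/+ and Chd8+/- embryos at E12.5, and Chd8+/+ and Chd8+/- pups at P5. The Chd8- allele lacks exon 3, which was floxed and then deleted with a β-actinCre transgene that was later bred out; the targeting used 2 embryonic stem cell clones. Both genotypes came from crosses of heterozygotes to C57BL/6J mice. Cortex of both hemispheres was taken at E12.5 and of a single hemisphere at P5. CHD8 is a chromatin remodeller, and the study asked how losing 1 copy of its gene alters the developing neocortex.

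PRC2 methylates lysine 27 of histone H3, a mark of silenced developmental genes. EZH2 and EZH1 are alternative catalytic subunits: EZH2 is the form of dividing cells and has the stronger methyltransferase activity, and EZH1 prevails in non-dividing cells. EED reads the methyl mark and stimulates the enzyme, SUZ12 holds the complex together, and RBBP4 and RBBP7 are histone-binding proteins that also belong to other chromatin complexes. JARID2 and AEBP2 define the PRC2.2 form, and MTF2 and PHF19, Polycomb-like proteins that bind CpG-rich DNA and methylated H3, define the PRC2.1 form. In the developing neocortex PRC2 is best known for setting the pace at which progenitors move from making neurons to making glia.

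The promoters of the catalytic pair are shown because the levels of Ezh2 and Ezh1 moved in opposite directions between the stages, and those of Suz12 and Phf19 because they share a motif with Ezh2. Each is the RefSeq window of 300 bases on GRCm38.p6, from 250 bases before the start site to 50 after it, read 5′ to 3′ on the gene's own strand. Ezh2 lies at chr6:47594981-47595280 (minus strand), Ezh1 at chr11:101226414-101226713 (minus strand), Suz12 at chr11:79992856-79993155 (plus strand) and Phf19 at chr2:34913927-34914226 (minus strand). Capitals mark letters of the E2F type, the cell cycle factors' motif, searched as TTTCCCGC, TTTCGCGC, TTTGCCGC and TTTGGCGC on both strands.
Ezh2 promoter: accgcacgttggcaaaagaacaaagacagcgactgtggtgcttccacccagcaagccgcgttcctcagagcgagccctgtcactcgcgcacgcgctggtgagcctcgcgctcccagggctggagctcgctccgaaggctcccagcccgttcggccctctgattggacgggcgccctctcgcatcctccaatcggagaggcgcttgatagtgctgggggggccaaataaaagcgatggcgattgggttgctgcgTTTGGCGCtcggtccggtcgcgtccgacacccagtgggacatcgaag
Ezh1 promoter: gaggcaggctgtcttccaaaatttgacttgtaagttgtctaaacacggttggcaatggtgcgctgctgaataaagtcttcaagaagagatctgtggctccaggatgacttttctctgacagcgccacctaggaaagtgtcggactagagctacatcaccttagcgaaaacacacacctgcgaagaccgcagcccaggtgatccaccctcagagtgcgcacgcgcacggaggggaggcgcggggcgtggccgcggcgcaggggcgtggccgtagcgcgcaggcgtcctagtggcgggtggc
Suz12 promoter: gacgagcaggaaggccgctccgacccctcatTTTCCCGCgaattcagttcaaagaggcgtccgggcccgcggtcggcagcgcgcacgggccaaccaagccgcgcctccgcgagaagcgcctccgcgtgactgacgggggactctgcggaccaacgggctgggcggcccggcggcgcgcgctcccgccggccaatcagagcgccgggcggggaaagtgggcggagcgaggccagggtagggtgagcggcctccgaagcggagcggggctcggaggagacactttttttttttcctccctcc
Phf19 promoter: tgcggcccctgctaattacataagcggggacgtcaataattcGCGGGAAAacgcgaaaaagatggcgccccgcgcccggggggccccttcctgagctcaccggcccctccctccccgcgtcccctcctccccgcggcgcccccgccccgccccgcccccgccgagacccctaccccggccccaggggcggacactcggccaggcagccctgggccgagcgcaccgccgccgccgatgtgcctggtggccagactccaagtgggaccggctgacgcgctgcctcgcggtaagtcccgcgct
The E2F letters occur in 2.26% of all 32851 promoter windows and in 3 of the 14 windows of the members, 1 each of 3 genes. In Ezh2 the match TTTGGCGC begins at base 4 after the start, in Suz12 TTTCCCGC begins 219 bases before it, and in Phf19 the reverse complement of TTTCCCGC begins 208 bases before it. The letters CCAAT, the box bound by NF-Y, on either strand occur in 37.4% of all windows and in 9 of the 14 windows of the members, which belong to 8 genes. Ezh2 holds 3 such matches, at 90, 64 and 11 bases before the start. Neither set of letters occurs in the Ezh1 window, which says only that these letters are not in this window. Phf19 was the other gene without CCAAT. The 10 genes have 14 windows in the table. Their GC content ran from 45.7% to 75.7%, beside a median of 52.7% over all windows, with Ezh2 at 64.3% and Ezh1 at 59.3%. The genes are not neighbours: Suz12 and Ezh1 are on chromosome 11 and Ezh2 and Aebp2 on chromosome 6, far apart, and the others are on chromosomes 2, 4, 5, 7, 13 and X.

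Each library held between 38774591 and 54695236 counts assigned to genes, and the PRC2 genes had between 114 (Phf19) and 20487 (Rbbp4) counts each. Levels are given as counts per 1000000 assigned counts (CPM), scaled by TMM over the 12 libraries. Levels of different genes are compared as CPM per kilobase of exon, except where a gene is set against the summed progenitor markers in CPM. Chd8, the targeted gene, had 229 to 235 CPM in Chd8+/+ and 161 to 167 CPM in Chd8+/- libraries at E12.5, and 145 to 151 and 95.01 to 98.64 CPM at P5. It was lower in every heterozygous library, in the direction of the labels. In each group 1 of the 3 libraries had high counts of Xist, a transcript of female cells, so that this was balanced between genotypes and stages. The neocortical progenitor markers summed to 2829 to 3024 CPM in the E12.5 Chd8+/+ libraries and the excitatory neuron markers to 4014 to 4158 CPM in the P5 Chd8+/+ libraries, and all 20 of these genes were detected at both stages. The stages were held in separate count tables, so the stage of the cortex and the batch of its libraries cannot be told apart in any comparison of P5 with E12.5. Nothing in the labels says whether a library is 1 animal, and p-values measure the spread between these libraries.

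The first comparison asks how PRC2 RNA differed between the embryonic and the postnatal cortex. In both genotypes 9 of the 10 genes were lower at P5 and passed the test, and Ezh1 was higher and passed it. Ezh2 fell most, 11.6-fold in Chd8+/+, and Rbbp7 least, 1.35-fold. Over all 19676 genes tested, 41.7% were called lower and 41.4% higher in Chd8+/+, and 41.6% and 41.3% in Chd8+/-, so that a call in this comparison is common and the size of each change says more than its call. The median log2 fold change of the 10 genes was -1.51 in Chd8+/+ and -1.49 in Chd8+/-, beside -0.02 and -0.0046 over all genes tested. The lowest and highest adjusted p among the members were 8.8e-16 and 8.4e-08 in Chd8+/+ and 7.9e-16 and 3.2e-07 in Chd8+/- (edgeR quasi-likelihood test).

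**Figure D1:**
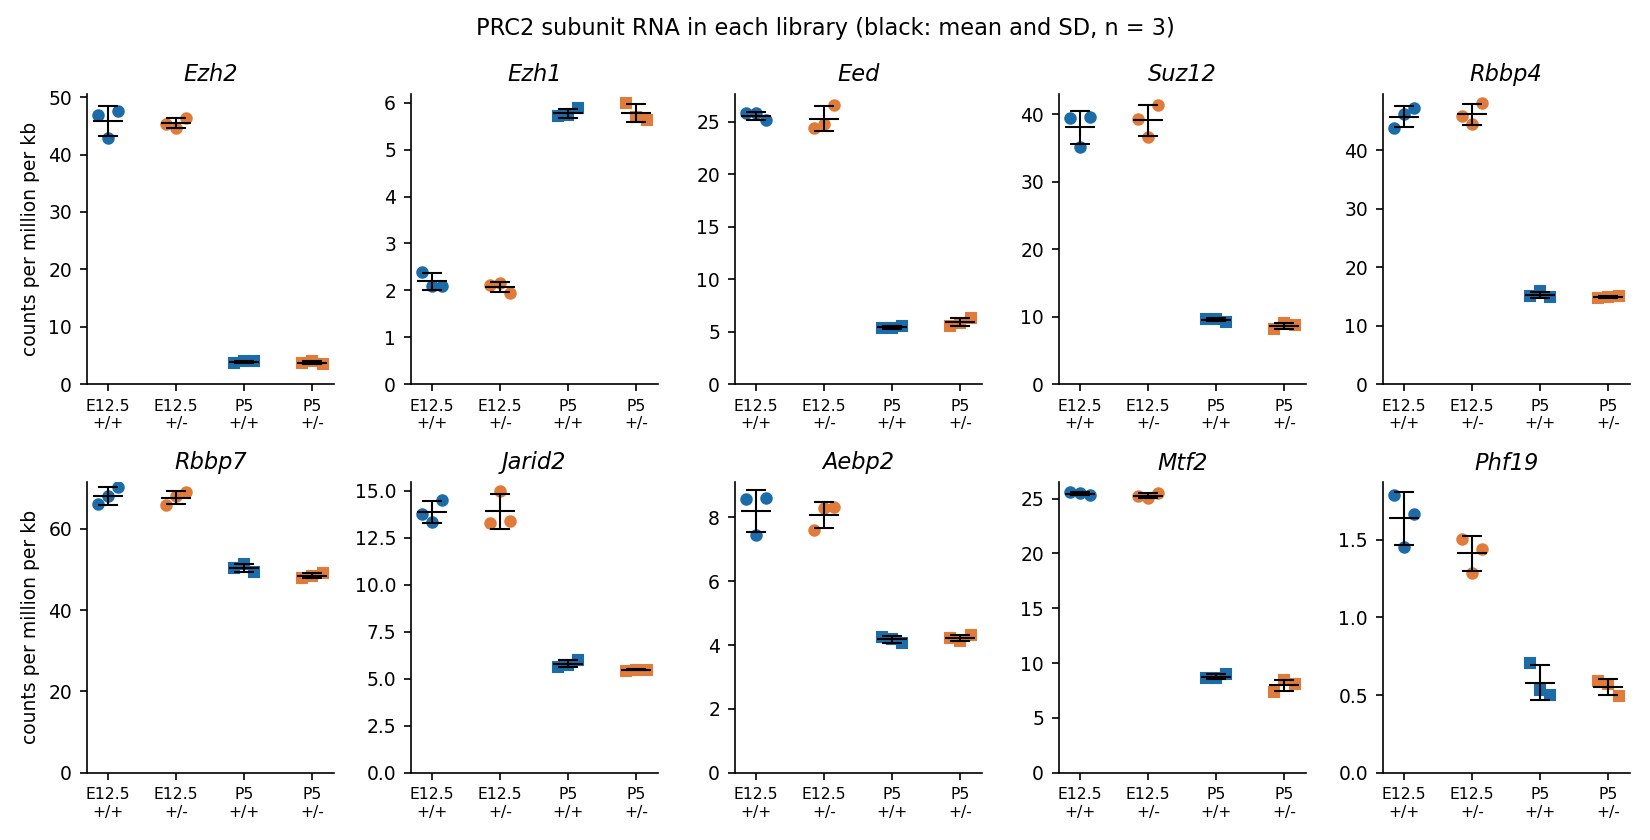
Level of each PRC2 gene in each of the 12 libraries, in CPM per kilobase of exon on axes that start at 0 and differ between genes, with black bars for the mean and SD of 3 libraries. The E12.5 and P5 libraries do not overlap for any of the 10 genes, and Ezh1 is the gene whose P5 libraries lie above.

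Ezh2 (ENSMUSG00000029687, chr6:47530139-47595341 on GRCm38) had 313, 286 and 318 CPM in the E12.5 Chd8+/+ libraries and 303, 298 and 310 CPM in the E12.5 Chd8+/- libraries. At P5 it had 25.1, 26.9 and 27.1 CPM in Chd8+/+ and 24.3, 27.02 and 23.4 CPM in Chd8+/-. All 6 libraries of one stage lay within a narrow band and the stages were far apart, with the genotypes overlapping at each. The log2 fold change was -3.54 (SE 0.0599) in Chd8+/+, an 11.6-fold fall, and -3.61 (SE 0.0603) in Chd8+/-, a 12.2-fold fall. Of the 19676 genes tested, 370 had a lower log2 fold change than Ezh2 in Chd8+/+ and 372 in Chd8+/-.

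Ezh1 (ENSMUSG00000006920, chr11:101191115-101226463) had 17.8, 15.6 and 15.5 CPM in E12.5 Chd8+/+ and 15.7, 16.1 and 14.5 CPM in E12.5 Chd8+/- libraries. Its P5 values were 42.5, 42.6 and 43.8 CPM in Chd8+/+ and 44.6, 42.3 and 41.9 CPM in Chd8+/-. Every P5 library lay above every E12.5 library. Ezh1 rose 2.63-fold in Chd8+/+ (log2 fold change 1.39, SE 0.0634, edgeR adjusted p = 2.6e-11) and 2.78-fold in Chd8+/- (1.48, SE 0.0640, edgeR adjusted p = 1.5e-11). It shares no exonic base with another annotated gene.

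The changes of opposite sign turned the balance of the catalytic pair. Per kilobase, the E12.5 Chd8+/+ libraries held 19.6, 20.4 and 22.8 times as much Ezh2 as Ezh1 RNA, and the E12.5 Chd8+/- libraries 21.4, 20.7 and 23.8 times as much. At P5 the same ratio was 0.658, 0.703 and 0.689 in Chd8+/+ and 0.606, 0.711 and 0.623 in Chd8+/-, so that Ezh1 was the more abundant transcript in all 6 libraries. Ezh2 made up 95.1% to 95.8% of the catalytic subunit RNA in E12.5 Chd8+/+ libraries and 39.7% to 41.3% in P5 Chd8+/+ libraries. The summed level of both genes fell from 48.0 ± 2.64 to 9.72 ± 0.238 CPM per kilobase (SD, n = 3) in Chd8+/+ and from 47.5 ± 0.781 to 9.50 ± 0.315 in Chd8+/-, since the rise of Ezh1 was small in absolute terms beside the fall of Ezh2.

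On the log2 scale the ratio went from 4.39 ± 0.12 to -0.55 ± 0.05 (SD, n = 3) in Chd8+/+, a difference of -4.94 or 30.6-fold. In Chd8+/- it went from 4.45 ± 0.11 to -0.63 ± 0.12, a difference of -5.09 or 34.0-fold. The stages did not overlap in either genotype, and the two-sided exact permutation p was 0.10 in each, the smallest that 3 against 3 libraries allow. With both genotypes together and the stage permuted within each, an alternative added after the data were seen, the difference was -5.01 and the exact permutation p 0.005, the smallest that these 400 arrangements can give.

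**Figure D2:**
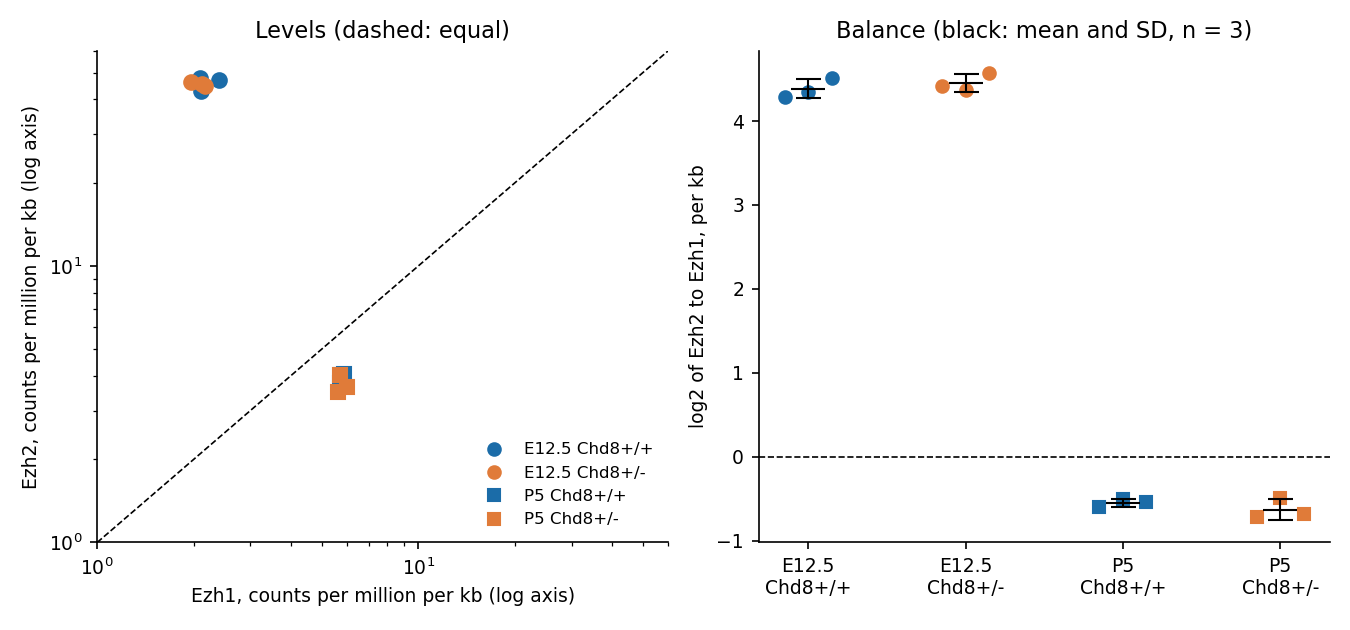
Left, Ezh2 against Ezh1 in each library in CPM per kilobase on log axes, with a dashed line where both are equal; right, the log2 ratio of Ezh2 to Ezh1 per kilobase with mean and SD of 3 libraries. The 6 E12.5 libraries lie at a ratio of 19.6 or more and the 6 P5 libraries at 0.711 or less, and the genotypes overlap at both stages.

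Eed and Suz12, the core subunits that the enzyme needs for activity, fell next most. Eed (ENSMUSG00000030619) had 57.3, 57.3 and 55.8 CPM in E12.5 Chd8+/+ libraries and 11.8, 11.99 and 12.4 CPM in P5 Chd8+/+ libraries. In Chd8+/- it had 54.1, 55.0 and 59.1 CPM at E12.5 and 12.3, 12.9 and 14.04 CPM at P5. All 6 P5 libraries were far below the embryonic ones, and the genotypes overlapped at both. Its log2 fold change was -2.23 (SE 0.0600) in Chd8+/+ and -2.10 (SE 0.0599) in Chd8+/-.

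Suz12 (ENSMUSG00000017548) had 195, 174 and 196 CPM in E12.5 Chd8+/+ and 194, 181 and 204 CPM in E12.5 Chd8+/- libraries. It had 48.0, 48.0 and 45.8 CPM in P5 Chd8+/+ and 40.4, 44.6 and 43.3 CPM in P5 Chd8+/- libraries. The genotypes overlapped at E12.5, and at P5 all 3 heterozygous libraries lay below the 3 others. The log2 fold change between stages was -1.99 (SE 0.0572) in Chd8+/+ and -2.18 (SE 0.0578) in Chd8+/-.

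Ezh2 fell more than the core subunits it works with. Per kilobase, Ezh2 RNA was 1.66 to 1.89 times that of Eed in E12.5 Chd8+/+ libraries and 0.705 to 0.744 times at P5, and 1.19 to 1.22 times that of Suz12 at E12.5 and 0.387 to 0.437 times at P5. In Chd8+/- the Ezh2 to Eed ratio ran from 1.74 to 1.86 at E12.5 and from 0.554 to 0.694 at P5, and the Ezh2 to Suz12 ratio from 1.12 to 1.22 and from 0.401 to 0.449. These ratios did not overlap between stages in either genotype.

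The histone-binding pair moved unequally. Rbbp4 (ENSMUSG00000057236) had 383, 405 and 413 CPM in E12.5 Chd8+/+ and 132, 139 and 131 CPM in P5 Chd8+/+ libraries, a log2 fold change of -1.58 (SE 0.0483), and -1.63 (SE 0.0484) in Chd8+/-. Rbbp7 (ENSMUSG00000031353), which is on the X chromosome, had 192, 198 and 205 CPM at E12.5 and 146, 150 and 144 CPM at P5 in Chd8+/+, a log2 fold change of -0.43 (SE 0.0369), and -0.48 (SE 0.0370) in Chd8+/-. It was the smallest change among the 10 genes in both genotypes. The ratio of Rbbp4 to Rbbp7 per kilobase was 0.663 to 0.681 in E12.5 Chd8+/+ libraries and 0.299 to 0.310 at P5. Per kilobase Rbbp7 was thus the more abundant of the pair at both stages, and more so after birth. At E12.5 this order rests on the merged exon lengths, 8744 bases for Rbbp4 and 2909 for Rbbp7, since Rbbp4 had the higher CPM there.

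All 4 accessory subunits among the members fell, while Phf1, a PRC2.1 partner outside the 10, rose. For PRC2.2, Jarid2 (ENSMUSG00000038518) went from 134, 130 and 141 CPM to 54.7, 55.9 and 58.5 CPM in Chd8+/+, a log2 fold change of -1.26 (SE 0.0494) and of -1.34 (SE 0.0497) in Chd8+/-. Aebp2 (ENSMUSG00000030232) went from 84.4, 73.4 and 84.9 CPM to 41.9, 41.4 and 40.1 CPM, a log2 fold change of -0.98 (SE 0.0580) and of -0.94 (SE 0.0582) in Chd8+/-. The falls were 2.39-fold and 1.97-fold in Chd8+/+, and no P5 library reached an embryonic one.

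For PRC2.1, Mtf2 (ENSMUSG00000029267) went from 146, 145 and 144 CPM to 49.4, 49.2 and 51.2 CPM in Chd8+/+, a log2 fold change of -1.54 (SE 0.0425) and of -1.66 (SE 0.0429) in Chd8+/-. Phf19 (ENSMUSG00000026873) was the scarcest member, with 9.002, 7.33 and 8.40 CPM at E12.5 and 3.56, 2.69 and 2.52 CPM at P5, a log2 fold change of -1.49 (SE 0.135) and of -1.36 (SE 0.138) in Chd8+/-. Per kilobase, Jarid2 and Aebp2 together were 0.772 to 0.857 times Mtf2 and Phf19 together in E12.5 Chd8+/+ libraries and 1.05 to 1.09 times at P5. In Chd8+/- the ratio ran from 0.781 to 0.883 at E12.5 and from 1.07 to 1.21 at P5. These ratios leave out Phf1, the third Polycomb-like protein, and turn round when it is added to Mtf2 and Phf19, an alternative chosen after the data were seen. With it the ratio was 0.594 to 0.674 at E12.5 and 0.370 to 0.381 at P5 in Chd8+/+, and 0.613 to 0.692 and 0.344 to 0.363 in Chd8+/-, so that the PRC2.1 side was the larger in all 12 libraries.

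**Figure D3:**
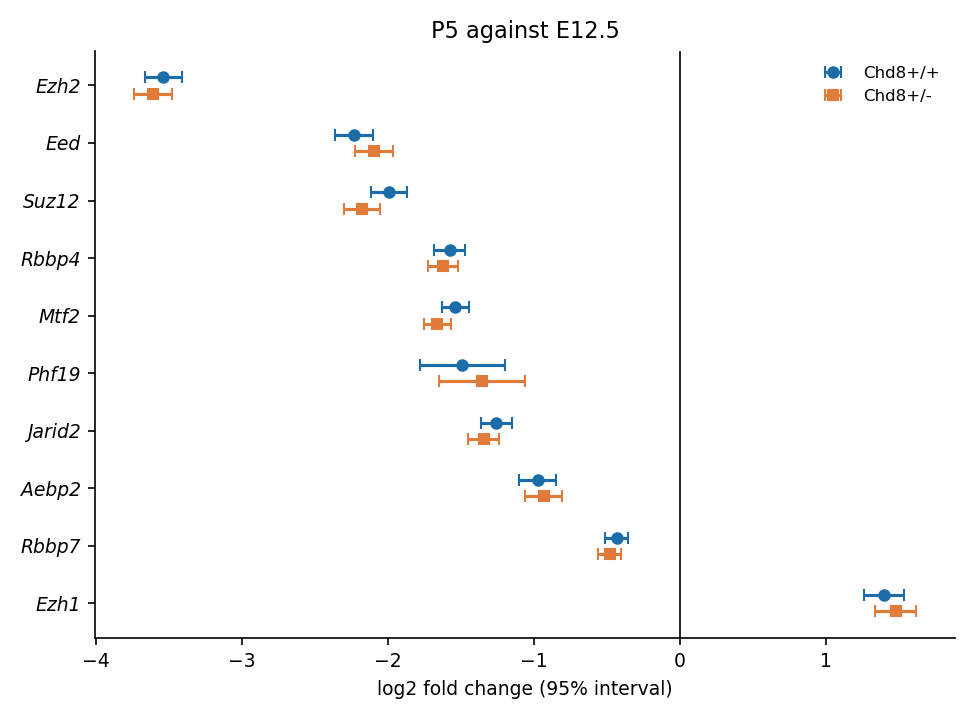
Log2 fold change of each PRC2 gene between P5 and E12.5 with its 95% interval from edgeR, in Chd8+/+ (circles) and Chd8+/- (squares). Ezh2 lies at -3.54 and -3.61, Rbbp7 is nearest to 0 among the genes that fell, and Ezh1 is the gene to the right of 0.

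In order of level per kilobase, the E12.5 Chd8+/+ libraries ran Rbbp7 (68.1 ± 2.17 CPM per kilobase, SD, n = 3), Ezh2 (45.8 ± 2.58), Rbbp4 (45.8 ± 1.78), Suz12 (38.1 ± 2.47), Eed (25.6 ± 0.383), Mtf2 (25.5 ± 0.142), Jarid2 (13.9 ± 0.586), Aebp2 (8.21 ± 0.660), Ezh1 (2.19 ± 0.176) and Phf19 (1.64 ± 0.168). Ezh2 and Rbbp4 overlapped, as did Eed and Mtf2, and the other neighbours did not. In P5 Chd8+/+ the order was Rbbp7 (50.4 ± 1.02), Rbbp4 (15.3 ± 0.541), Suz12 (9.56 ± 0.250), Mtf2 (8.77 ± 0.195), Jarid2 (5.81 ± 0.202), Ezh1 (5.77 ± 0.0982), Eed (5.44 ± 0.134), Aebp2 (4.17 ± 0.0962), Ezh2 (3.95 ± 0.163) and Phf19 (0.580 ± 0.111). Here Jarid2 and Ezh1 overlapped. Ezh2 thus went from rank 2 to rank 9 and Ezh1 from rank 9 to rank 6. The P5 Chd8+/- libraries had Ezh2 and Ezh1 at those ranks too, with Suz12 and Mtf2 overlapping, and Eed and Ezh1 overlapping.

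By the closeness of their pattern over the 12 libraries, measured as the root mean square difference of log2 CPM after centring each gene on its own mean, the 5 genes most like Ezh2 were Anln, Dbf4, Nr2e1, Tmpo and Emx2, with differences of 0.0490, 0.0525, 0.0534, 0.0609 and 0.0668. Anln and Dbf4 act in cell division and DNA replication, and Nr2e1 and Emx2 are transcription factors of neural progenitors. For Ezh1 the nearest were Pip5k1c, Slc2a8, Tbc1d8, Adgrl1 and Mzf1, with differences of 0.0403, 0.0507, 0.0570, 0.0576 and 0.0579. Pip5k1c makes a phosphoinositide used at synapses and Adgrl1 is a synaptic adhesion receptor, but no such role is claimed for Slc2a8, Tbc1d8 and Mzf1. Since the stages differ so much, likeness over these libraries is mainly likeness in the size of 1 change.

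In these bulk samples, fewer cells of a type and less RNA per cell cannot be told apart. Markers of dividing cells and progenitors moved with the stage. All 14 cell division genes and all 10 neocortical progenitor genes were called lower at P5 in both genotypes, with median log2 fold changes of -4.10 and -3.46 in Chd8+/+. Over all genes 41.7% were called lower in Chd8+/+ and 41.6% in Chd8+/-. The cell division sum went from 3926 to 4237 CPM in E12.5 Chd8+/+ libraries to 232 to 260 CPM at P5, and the progenitor sum from 2829 to 3024 CPM to 238 to 263 CPM. None of the defining markers of either list was at 0 counts in a group. Of the cortical excitatory neuron markers 7 of 10 were called higher and 2 lower in Chd8+/+, beside 41.4% and 41.7% of all genes. Their median was 1.39. The log2 fold changes of Ezh2, Eed and Suz12 fell inside the span of the cell division list in Chd8+/+, -4.87 to -1.95, and those of the other 7 PRC2 genes did not. The -1.95 end is set by 1 gene, E2f1, with a mean of 49.2 CPM at E12.5 and 12.8 CPM at P5. Eed and Suz12 lay nearer to that end than to the list median of -4.10. Inside the span of the progenitor list, -6.04 to -1.47, were 6 of the 10 in Chd8+/+, Rbbp4, Mtf2 and Phf19 besides those 3, and 7 of the 10 in Chd8+/-, where Jarid2 was the seventh. The -1.47 end is set by 1 gene, Hes5, with a mean of 36.6 CPM at E12.5 and 13.2 CPM at P5 in Chd8+/+. Of the 6 in Chd8+/+, Ezh2 alone lay nearer to the list median of -3.46 than to that end.

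Set against the summed progenitor markers of the same library, Ezh2 CPM came to 10.11% to 10.997% in E12.5 Chd8+/+, 10.004% to 10.82% in E12.5 Chd8+/-, 9.66% to 11.4% in P5 Chd8+/+ and 9.999% to 11.2% in P5 Chd8+/-. The 4 ranges overlap, so that Ezh2 and the sum of these markers were lower at P5 by a similar factor. For the other 9 genes the same share was higher in every P5 library than in every E12.5 library of that genotype. Eed went from 1.85% to 2.02% at E12.5 to 4.55% to 5.22% at P5 in Chd8+/+, Suz12 from 6.15% to 6.84% to 18.2% to 19.3%, and Rbbp7 from 6.75% to 6.99% to 56.4% to 60.5%. The part of cell composition in these differences was not tested. The progenitor sum is set mainly by Vim and Nes, its most abundant genes.

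The wider Polycomb machinery was compared for the same contrast, in which 41.7% of all genes were called lower and 41.4% higher in Chd8+/+. Of 5 other PRC2 partners, 4 were tested and all 4 were called in both genotypes: Lcor (-2.64 in Chd8+/+ and -2.70 in Chd8+/-), Epop (-1.18 and -1.13) and Lcorl (-0.54 and -0.71) were lower, and Phf1 was higher (1.08 and 1.37, edgeR adjusted p = 5.3e-09 and 3.5e-10). Phf1 and Ezh1 were the 2 PRC2 genes of the 14 tested that rose. Both demethylases that remove the mark fell, Kdm6a by 1.17 and 1.34 and Kdm6b by 1.03 and 1.04 on the log2 scale. Kdm6a is on the X chromosome.

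PRC1, the complex that ubiquitinates histone H2A and whose CBX subunits bind the PRC2 mark, had 25 genes tested. In Chd8+/+ 15 were called lower, 7 higher and 3 in neither direction, and in Chd8+/- 16 lower, 6 higher and 3 in neither direction, with medians of -0.45 in both. Over all genes 41.7% were called lower and 41.4% higher in Chd8+/+, and 41.6% and 41.3% in Chd8+/-. The number of PRC1 genes called in either direction is thus no result about the list. The largest changes were those of Cbx2 (-3.78 and -3.81), Pcgf5 (-2.06 and -2.35), Bcor (-1.58 and -1.74) and Phc2 (-1.61 and -1.56). Cbx2 had 142, 130 and 155 CPM in E12.5 Chd8+/+ and 9.57, 11.1 and 10.6 CPM in P5 Chd8+/+ libraries, a fall of about the size of that of Ezh2. Of the 4 genes of the deubiquitinase that reverses the PRC1 mark, Asxl2 (-1.05 and -1.13), Asxl1 (-0.68 and -0.74) and Bap1 (-0.13 and -0.12) were lower and Asxl3 was not called. The call of Bap1 in Chd8+/- was lost with DESeq2 and with 2 other scalings, where its log2 fold change ran from -0.08 to -0.06.

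**Figure D4:**
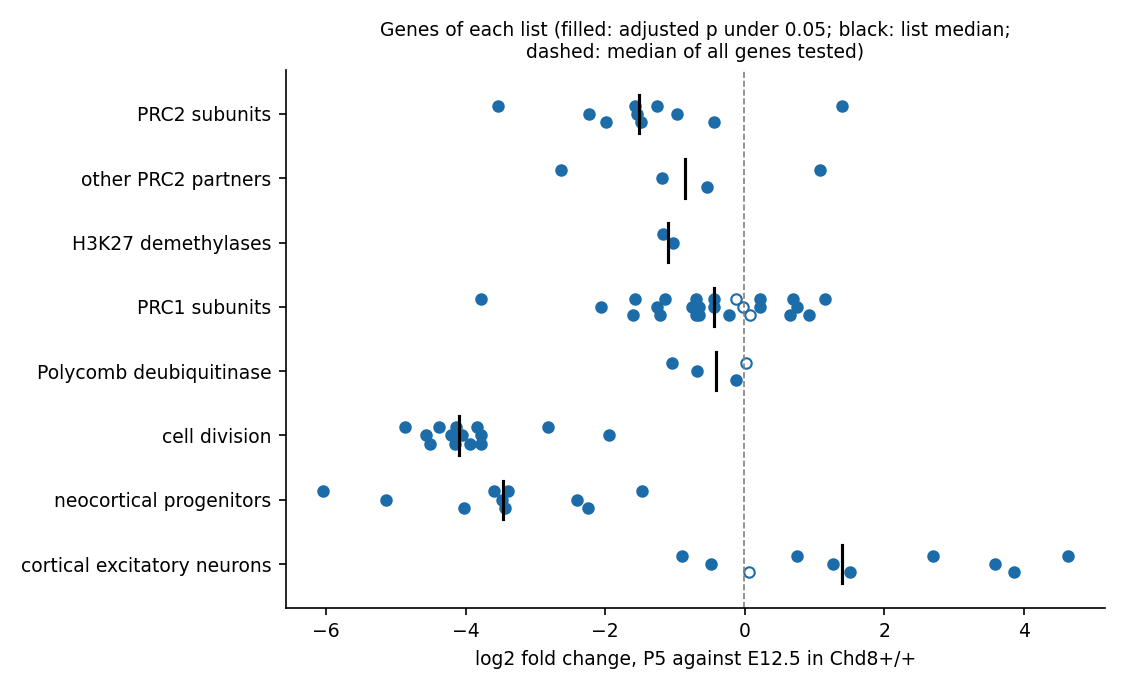
Log2 fold change between P5 and E12.5 in Chd8+/+ for each tested gene of 8 lists, filled where the edgeR adjusted p is under 0.05, with the list median in black and the median of all genes dashed. The PRC2 median lies at -1.51, those of the cell division and progenitor lists at -4.10 and -3.46, and PRC1 spreads to both sides.

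The 41 genes of the Hox clusters and the Cdkn2 loci, classical PRC2 targets, summed to between 0.230 and 0.397 CPM in E12.5 Chd8+/+ libraries and to between 0.781 and 0.838 CPM in P5 Chd8+/+ libraries. The sums were 0.307 to 0.581 and 0.754 to 0.892 CPM in Chd8+/-. Of these genes 24 to 28 had 0 counts in all 3 libraries of a group. Cdkn2b, an inhibitor of cyclin-dependent kinases, was the 1 gene of them that passed the filter on low counts. In Chd8+/+ it had 0.0193, 0.0230 and 0.125 CPM at E12.5 (1 to 6 counts). At P5 it had 0.428, 0.368 and 0.640 CPM (16 to 29 counts). It passed the filter through its P5 libraries, where it was high, so that its call as higher at P5 carries no weight. The group of genes was close to silent at both stages and in both genotypes.

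The second comparison asks whether losing 1 copy of Chd8 altered PRC2 RNA. At E12.5 none of the 10 genes was called, beside 0.00553% of 18081 genes (Chd8 itself), and none had an unadjusted p under 0.05, beside 5.15% of all genes. The 10 log2 fold changes ran from -0.22 (Phf19) to 0.04 (Suz12), and the lowest adjusted p was 0.942 (edgeR). The genotypes overlapped for all 10, beside 11.4% of genes whose groups do not overlap. Ezh2 differed by -0.01 with a 95% interval from -0.13 to 0.11, Ezh1 by -0.08 (-0.26 to 0.09), Eed by -0.02 (-0.14 to 0.10) and Suz12 by 0.04 (-0.10 to 0.17). The precision was lowest for Phf19, at -0.22 (-0.45 to 0.02), with 7.59, 6.49 and 7.26 CPM in Chd8+/- beside the 7.33 to 9.002 CPM of Chd8+/+.

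At P5 none of the 10 genes was called, beside 0.00536% of 18666 genes (again Chd8). Without P5 Chd8+/- replicate 2, the same test called 327 genes (1.72%), and again none of the 10. DESeq2 called 5.28% of the 12362 genes to which it gave an adjusted p and none of the 9 members among them, since Phf19 got none. With all genes kept, edgeR called 3.18% of 31265 genes and none of the 10, and limma-voom called 0.00536% of 18666 and none of the 10. Unadjusted p-values under 0.05 were found for 2 of the 10, Suz12 and Mtf2, beside 17.8% of all genes. The groups did not overlap for 4 of the 10, Suz12, Mtf2, Jarid2 and Rbbp7, all lower in Chd8+/-, beside 23.4% of all genes in either direction. The median log2 fold change of the 10 was -0.05, beside 0.0017 over all genes.

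Suz12 was lower by 0.13 on the log2 scale (SE 0.0470, 95% interval -0.23 to -0.02, unadjusted p = 0.0202, edgeR adjusted p = 0.203), a difference of -8.53%. Over the alternatives its adjusted p ran from 0.120 to 0.483. Mtf2 had 42.2, 48.0 and 46.3 CPM in P5 Chd8+/- libraries, each below the 49.2 to 51.2 CPM of Chd8+/+, a log2 fold change of -0.12 (SE 0.0507, interval -0.23 to -0.0069, edgeR adjusted p = 0.258, and 0.141 to 0.566 over the alternatives). Without heterozygous replicate 1 the Mtf2 value was -0.07, and its unadjusted p stayed under 0.05 in 1 of the 6 fits that leave out a P5 library, beside 3 of 6 for Suz12. Replicate 1 of the heterozygotes was the lowest library for both genes. Jarid2 had 52.9, 53.3 and 53.4 CPM beside 54.7 to 58.5 CPM, and Rbbp7 139, 141 and 143 CPM beside 144 to 150 CPM, with log2 fold changes of -0.07 (-0.16 to 0.02) and -0.04 (-0.12 to 0.03).

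Eed was the member with the highest log2 fold change at P5, 0.13 (SE 0.0705, interval -0.02 to 0.29, edgeR adjusted p = 0.348), and its groups overlapped. Ezh2 differed by -0.07 (-0.21 to 0.08) and Ezh1 by 0.02 (-0.08 to 0.11), both overlapping. The Ezh2 value moved with single libraries, to -0.13 without P5 Chd8+/- replicate 2 and to -0.01 without P5 Chd8+/- replicate 3, and was not called in either case. Rbbp4 (-0.02), Aebp2 (0.03) and Phf19 (-0.06) overlapped as well. The intervals leave room for differences of up to -14.9% for Suz12, -13.4% for Ezh2 and 22.3% for Eed, and Chd8 itself differed by -34.5%.

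**Figure D5:**
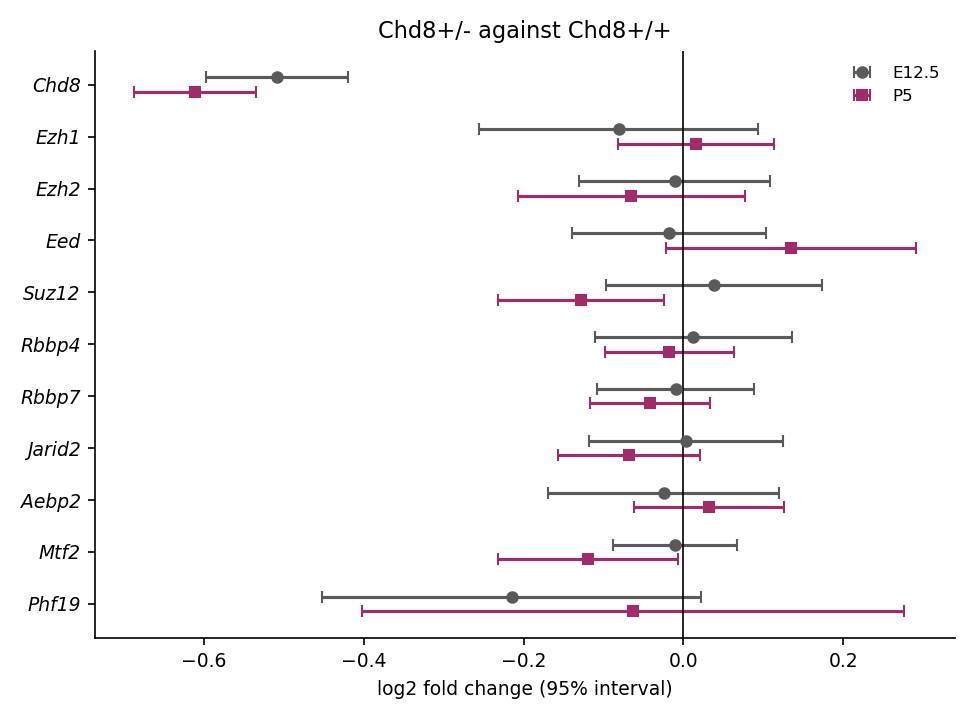
Log2 fold change between Chd8+/- and Chd8+/+ with its 95% interval from edgeR at E12.5 (grey circles) and P5 (purple squares), for Chd8 and the 10 PRC2 genes. Chd8 lies at -0.51 and -0.61, and each of the PRC2 genes lies between -0.22 and 0.13, with the intervals of Suz12 and Mtf2 at P5 ending just below 0 before adjustment.

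The balance of the catalytic pair was also compared between genotypes. The log2 ratio of Ezh2 to Ezh1 was 0.07 higher in Chd8+/- at E12.5 (two-sided exact permutation p = 0.50) and 0.08 lower at P5 (difference -0.08, exact permutation p = 0.40), with overlapping libraries at both stages and a smallest possible p of 0.10. These differences are smaller than the SD of the ratio in at least 1 of the groups compared, and far smaller than the difference of -4.94 between stages. With run 1 of each library alone the P5 difference had the opposite sign, at 0.0175.

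The interaction of genotype and stage was called for none of the 10 genes, beside 0% of 19676 genes, and 10% of all genes had an unadjusted p under 0.05. Suz12 was the 1 member under it, with a log2 interaction of -0.18 (SE 0.0790, interval -0.35 to -0.01, unadjusted p = 0.0369, edgeR adjusted p = 0.472), and Mtf2 followed at -0.12 (-0.25 to 0.0026). The stage changes of Ezh2 differed by -0.07 (-0.24 to 0.10) between genotypes and those of Ezh1 by 0.08 (-0.11 to 0.27).

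Of the 87 genes on the cell type and cell division lists, edgeR tested 86 between genotypes at P5 and called none, but several lists leaned one way, and other settings called some of their genes. DESeq2 called 15 of 80, beside 5.28% of all genes to which it gave an adjusted p. All 15 were lower in Chd8+/-: 6 of 8 striatal medium spiny neuron genes, 3 of 3 choroid plexus, 3 of 5 endothelium, 2 of 10 excitatory neuron and 1 of 8 GABAergic interneuron genes. With all genes kept, edgeR called 20 of 87 lower and 2 higher, beside 3.18% of all genes. Without P5 Chd8+/- replicate 2 it called 11 of 86 lower and 1 higher, beside 1.72% of all genes. With the replicate block edgeR called the choroid plexus genes Folr1 and Ttr, both lower, beside 4 of 18666 genes in all. With all 12 libraries in 1 model it called Folr1, beside 4 of 19676. Without P5 Chd8+/- replicate 3 it called the erythrocyte genes Hba-a1 and Hba-a2, 1 higher and 1 lower, beside 5 of 18932. All 5 choroid plexus genes were lower in Chd8+/-, with non-overlapping groups, a median log2 fold change of -0.60 and sums of 320 to 379 CPM beside 440 to 571 CPM. All 8 striatal medium spiny neuron genes were lower likewise, with a median of -0.30 and sums of 245 to 301 CPM beside 334 to 366 CPM. None of these 13 genes was at 0 counts in a group. Over all genes, 17.8% had an unadjusted p under 0.05 and 23.4% had groups apart, and the counts of the lists that follow are to be read against these shares. Of the 5 endothelium genes 4 were lower with groups apart and an unadjusted p under 0.05, with a list median of -0.22 and sums of 168 to 187 CPM beside 187 to 213 CPM. Of the 10 progenitor genes 4 had an unadjusted p under 0.05, and the groups were apart for 4 lower genes, Pax6, Vim, Eomes and Neurog2, and for Hes5, which was higher. Unadjusted p-values under 0.05 were found for 3 of 8 GABAergic interneuron genes, 3 of 10 excitatory neuron genes and 3 of 5 erythrocyte genes, and for 1 or 0 genes of the other lists. The progenitor sum was 230 to 241 CPM in Chd8+/- beside 238 to 263 CPM in Chd8+/+, and the cell division sum 226 to 250 CPM beside 232 to 260 CPM. Their part in the lower Suz12 and Mtf2 values was not tested.

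In the wider Polycomb machinery edgeR called no gene between genotypes at either stage. At P5, 5 of the 35 other genes tested had an unadjusted p under 0.05, beside the 17.8% of all genes given above, so that this count is no result about the list; the 5 are named because of it. Auts2, a subunit of a PRC1 form that activates neuronal genes, was lower by 0.18 on the log2 scale (SE 0.0383, edgeR adjusted p = 0.0973), Bcor by 0.17, Lcorl by 0.11 and Asxl2 by 0.17, and Phf1 was higher at 0.13. The lowest adjusted p of the other 4 was 0.168. DESeq2 called Auts2, as did edgeR with all genes kept.

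Part of the reads of some members cannot be assigned by the counting used. Exons of Ezh2, Eed, Suz12, Rbbp4, Rbbp7 and Mtf2 overlap those of a gene on the opposite strand by 174 to 796 bases. The counting command recorded with the P5 table did not use strand, and that of the E12.5 table is not given in the sources used here, so that for these 6 genes a difference in counting between the tables cannot be told apart from the stage. For Ezh2 this touches 2.61% of its exonic length and for Eed 10.6%. The partners Txlng of Rbbp7 and Tmed5 of Mtf2 had 13918 and 15813 counts over the 12 libraries, and the partners of the other 4 had 239 to 430 counts each. Ezh1, Jarid2, Aebp2 and Phf19 share no exonic base with another gene.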

How the data were processed

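Cortical RNA of 12 libraries was sequenced as paired-end reads. According to the submitters' processing notes and methods, the authors trimmed reads with Trim Galore 0.4.1, aligned them to GRCm38 with TopHat2 2.1.0 and counted them per Ensembl gene with featureCounts 1.5.0. The deposited unit is the raw count per gene and sequencing run, unnormalized and unfiltered, and the deposited exon lengths are of merged exons. The 2 runs of each library were summed (38774591 to 54695236 counts per library), symbols came from the reference table for 46005 of 46603 genes, and intervals cover the spread between libraries.

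Genotypes were compared within a stage on 6 libraries, and stages and their interaction with genotype in a model of 12 libraries with 4 group means, by edgeR 4.0.16 quasi-likelihood fits (R 4.3.3) after filterByExpr and TMM, with p-values adjusted over all genes by Benjamini-Hochberg (threshold 0.05); the code was tested on simulated counts. CPM are the counts scaled by TMM. The Ezh2 to Ezh1 ratio was tested by exact permutation. Alternatives were DESeq2 1.42.0, limma-voom (limma 3.58.1), other scalings and filters, gene length offsets (loess span 0.5), Xist as a covariate, all libraries in 1 model, a replicate block, single runs, and each library left out. Named genes are the 10 members, Chd8, the 5 genes most alike in pattern to Ezh2 and to Ezh1 (pseudocount 0.1 CPM), and up to 4 per Polycomb list with the largest stage change. Auts2 and 4 other Polycomb genes with a low unadjusted p between genotypes at P5, and single marker genes, were named after their values were seen; members and lists were chosen with earlier results of these data known. Libraries of a group differed by 7.09 to 49.7 times the sampling variance, and runs of one library by 1.18 to 1.54 times, so none was a repeat deposit.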

Additional observations from a re-analysis of the deposited data

How the results depend on the processing

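All 10 PRC2 genes stayed called between stages, with their direction, in both genotypes under all 20 alternatives, and none was called between genotypes or in the interaction under any of 15 and 20 alternatives. The lowest member adjusted p over these was 0.763 at E12.5, 0.120 at P5 and 0.361 for the interaction. With offsets for gene length the median of all genes shifted to -0.24 in Chd8+/+ and -0.20 in Chd8+/-, where the log2 fold changes of Ezh1 were 1.16 and 1.31, those of Ezh2 -3.78 and -3.79 and those of Rbbp7 -0.72 and -0.75.

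Counts over all genes moved more: at P5 DESeq2 called 653 genes and edgeR with all genes kept 995 between genotypes, against 1, and edgeR called 327 without P5 Chd8+/- replicate 2 and 1 to 5 without any other P5 library. The counts were 3 and 13 at E12.5, against 1, and 8 and 17 in the interaction, against 0; no PRC2 gene was among them. Chd8 at E12.5 lost its call with Xist as a covariate, with the replicate block and without 1 of 3 libraries (E12.5 Chd8+/+ replicate 3, Chd8+/- replicates 1 and 3), while its log2 fold change stayed between -0.52 and -0.50. Bap1 lost its stage call in Chd8+/- with DESeq2, RLE and upper-quartile scaling and without E12.5 Chd8+/- replicate 1.

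Small differences between genotypes changed sign. The difference of the Ezh2 to Ezh1 log2 ratio between genotypes at P5 was 0.0175 with run 1 alone. At P5 Ezh1 came to -0.000636 with all libraries in 1 model and Rbbp4 to 0.0386 with length offsets, which also gave 0.0272 for its interaction; at E12.5 Jarid2 came to -0.00356 with all genes kept. Leaving out single libraries, the E12.5 values ran from -0.0520 to 0.0165 for Ezh2, -0.0587 to 0.00692 for Eed, -0.0105 to 0.0842 for Suz12, -0.0233 to 0.0394 for Rbbp4, -0.0364 to 0.0123 for Rbbp7, -0.0519 to 0.0341 for Jarid2 and -0.0852 to 0.0162 for Aebp2. The P5 values ran from -0.0131 to 0.0418 for Ezh1, -0.0296 to 0.0109 for Rbbp4 and -0.155 to 0.110 for Phf19, and the interactions from -0.0629 to 0.0158 for Rbbp4 and -0.0620 to 0.00544 for Rbbp7. The causes were not tested. The ratio between stages, pooled over genotypes, was -5.01 and passed at p = 0.005 by exact permutation, where 3 against 3 libraries cannot.

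Same-numbered libraries correlated from -0.227 to -0.0913 at E12.5 and from 0.0434 to 0.227 at P5. At P5 each library was closest to its own number, a hint from the data of pairing there, but not every correlation was above 0.1, and the labels name no shared litter or day, so the numbers were not taken as pairs. With the replicate block, 10 PRC2 genes were called between stages in each genotype and 0 between genotypes. The ratio averaged over same-numbered libraries differed by -4.94 and -5.09 between stages and by 0.07 and -0.08 between genotypes. These equal the unpaired differences by arithmetic and are no separate check. The counts of Phf19, 114 to 191 in P5 Chd8+/+ libraries, limit its precision.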
